A study of Canis lupus familiaris with 23 samples.

Results

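The 42 genes described here are cell cycle genes of the dog, 19 that act in S phase, when DNA is copied, and 23 that act in mitosis, when the copies are separated. The rule that picks them uses gene names alone, although members and lists were chosen with earlier results of these data known. All 42 were found by symbol among the 21418 entries listed for the 23 libraries. RNA was counted by CEL-seq2, a method developed for single cells and used here on bulk RNA, which reads the 3′ ends of transcripts and labels each sample with a barcode. The libraries come from dog skin, from hair follicles and interfollicular epidermis taken from it, and from epidermal organoids, which are keratinocyte cultures grown in 3 dimensions.

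The 12 groups are the following. Later follicle organoids in differentiation medium gave 2 libraries without Noggin, R-Spondin-1 and Forskolin, 2 without Noggin and R-Spondin-1, and 2 with the medium complete. Follicle organoids in expansion medium with a Tgf-beta inhibitor gave 2 later and 3 early libraries, and those without it gave 2 later and 2 early libraries. Interfollicular organoids, all with the inhibitor, gave 1 later and 1 early library. Early stands for passages 0 to 1 and later for passages 3 to 6, and every organoid library was made at day 7. The tissues gave 2 libraries each of hair follicles (growing and resting phases mixed), interfollicular epidermis and whole skin. Noggin is a BMP antagonist, R-Spondin-1 a Wnt agonist and Forskolin an activator of adenylyl cyclase; the labels do not name the inhibitor compound. They also do not say whether replicates are different dogs or cultures, so p-values measure the spread between these libraries only, and each interfollicular organoid group is assumed to vary like the groups with replicates.

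As background, a cell prepares its DNA for copying by loading the MCM helicase at origins, with CDC6 and CDT1 as loaders and the GINS complex as a later partner. The clamp PCNA, opened by the RFC complex, holds polymerases on DNA, FEN1 trims lagging strand fragments, RPA coats bare strands, and ribonucleotide reductase (RRM1 and RRM2) and TYMS supply nucleotides. UHRF1 and HELLS help to copy DNA methylation. Mitosis is driven by the kinase CDK1 with cyclins A and B (CCNA2, CCNB1, CCNB2), by the kinases PLK1, AURKA and AURKB, and by motors and spindle proteins such as KIF11, KIF23, TPX2 and NUSAP1. BUB1, BUB1B and TTK hold anaphase back until chromosomes are attached, and CDC20 and UBE2C then start the destruction of securin (PTTG1) and the cyclins. E2F factors switch on most S phase genes, and B-MYB and FOXM1 most mitosis genes. In the epidermis cells divide in the basal layer and stop as they move up into the suprabasal layers; in the follicle the hair matrix divides fastest.

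Total counts ran from 86301 (interfollicular epidermis replicate 2) to 4822410 per library, so that a count of 0 allows a level of up to 34.8 CPM in the shallowest and 0.622 CPM in the deepest library (3 counts of the total, counting error only; CPM, counts scaled to a common library total, include TMM scaling except in these floors). Of the 42 members, 39 passed the filter on low counts; MCM3, HMMR and TTK did not and were not tested. Libraries that stand apart are named here because several results rest on them. In all 3 differentiation media replicate 2 lay far below replicate 1 in nearly every member, as given below. Replicate 1 of the early follicle organoids with inhibitor had 388 CPM of S phase genes, against 1068 and 803 CPM in the other early libraries with inhibitor, while its mitosis genes summed to 1274 CPM, against 1546 and 1095 CPM. The ratio of the S phase to the mitosis sum was 0.305 there and 0.459 to 1.17 in the other 22 libraries. That library also had the highest sum of suprabasal keratinocyte markers in the series, 25980 CPM over 7 genes, and the lowest share of mitochondrial transcripts, 5.32%; their part in the result was not tested. Counts with a fraction, which reads shared among genes may leave, were listed for CCNB1 in 14 libraries, HMMR in 12, NUSAP1 in 11, UBE2C in 3, AURKA in 2 and CCNB2 in 1, and the separate values of these genes are uncertain.

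Outside the differentiation media, both lists had their lowest sums in tissue and their highest in follicle organoids grown without the inhibitor. The S phase genes summed to between 885 and 1504 CPM in the 4 follicle organoid libraries without inhibitor, 388 and 1068 CPM in the 5 with it, 685 and 948 CPM in the interfollicular organoids, and 298 and 457 CPM in the 6 tissue libraries. The mitosis genes summed to between 1027 and 2085 CPM, 997 and 1546 CPM, 812 and 1687 CPM, and 280 and 644 CPM in the same libraries. The mitosis sums of all 11 organoid libraries in expansion medium lay above all tissue sums, whereas the S phase sum of early replicate 1 with inhibitor lay inside the tissue range. In bulk RNA, fewer cycling cells and less RNA per cycling cell cannot be told apart.

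**Figure D1:**
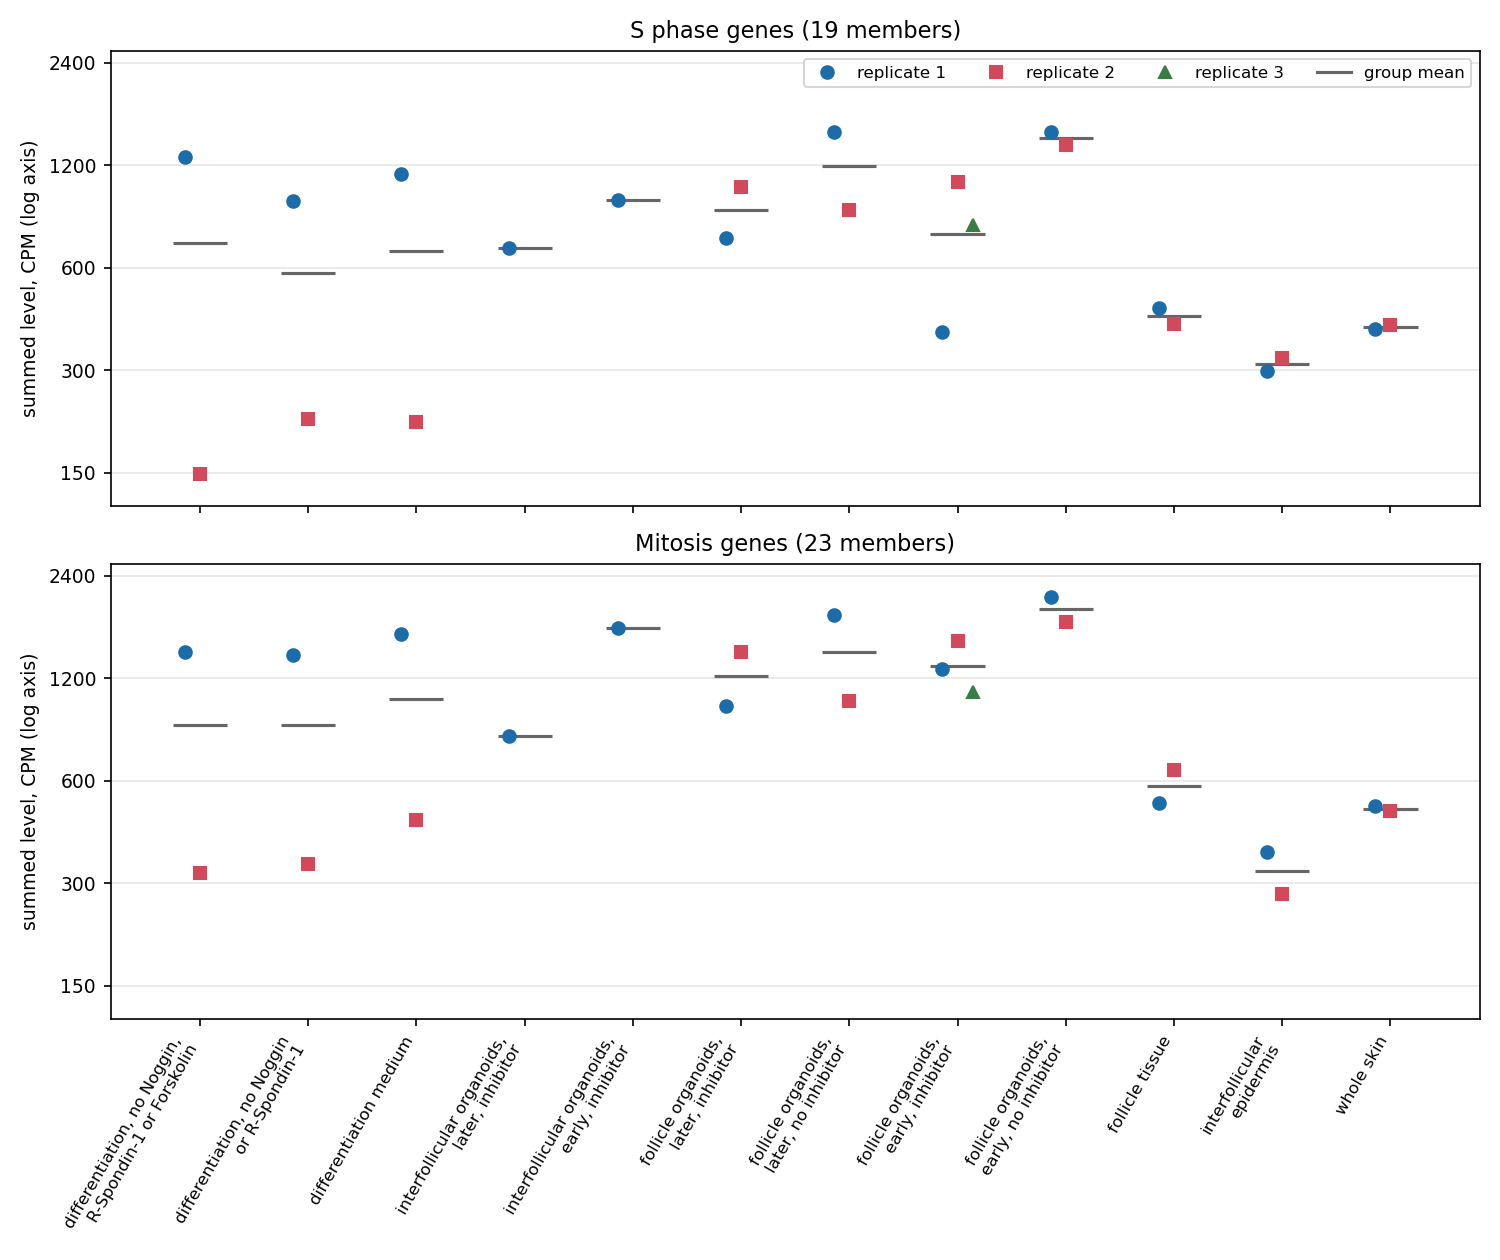
Summed level of the 19 S phase genes (upper panel) and the 23 mitosis genes (lower panel) in each of the 23 libraries, in TMM-scaled CPM on a log axis; symbols mark the replicate number and the grey line the group mean. Replicate 2 of each differentiation medium lies at 148 to 216 CPM for S phase, below every tissue library, while replicate 1 lies at 945 to 1267 CPM.

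PCNA, the clamp of the replication fork, averaged 187 ± 33.4 CPM in early and 153 ± 67.5 CPM in later follicle organoids without inhibitor (SD, n = 2 each). With the inhibitor it stood at 138 CPM in the early and 115 CPM in the later interfollicular organoid library, and averaged 105 ± 28.4 CPM in later (n = 2) and 73.6 ± 42.5 CPM in early follicle organoids (n = 3). In tissue it averaged 73.6 ± 12.9 CPM in whole skin, 64.9 ± 13.1 CPM in follicles and 52.9 ± 8.81 CPM in interfollicular epidermis (n = 2 each). Neighbours in this order differ by less than the larger of their SDs, where they have one. The differentiation media cannot be placed in it: PCNA stood at 124, 98.1 and 98.6 CPM in their replicate 1 libraries and at 17.0, 17.2 and 10.3 CPM in replicate 2 (in the order without Noggin, R-Spondin-1 and Forskolin, without Noggin and R-Spondin-1, complete).

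RRM2, the regulated subunit of ribonucleotide reductase, averaged 395 ± 6.32 CPM in early and 334 ± 129 CPM in later follicle organoids without inhibitor (SD, n = 2 each), and 311 ± 74.8 CPM in later (n = 2) and 227 ± 121 CPM in early ones with it (n = 3). The interfollicular organoid libraries had 283 CPM early and 145 CPM later. The tissues lay together at the low end, with 69.0 ± 12.9 CPM in follicles, 66.0 ± 26.5 CPM in whole skin and 59.2 ± 6.65 CPM in interfollicular epidermis (n = 2 each), apart from all organoid means in expansion medium.

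MCM5, a helicase subunit, averaged 62.3 ± 19.4 CPM in early and 50.2 ± 21.2 CPM in later follicle organoids without inhibitor (SD, n = 2 each), and 24.96 ± 14.6 CPM in later (n = 2) and 23.5 ± 14.8 CPM in early ones with it (n = 3). The interfollicular organoid libraries had 45.5 CPM early and 42.4 CPM later. Follicles had 22.1 ± 2.44 CPM, level with the follicle organoids that received the inhibitor, whole skin had 10.4 ± 2.04 CPM and interfollicular epidermis 8.97 ± 9.33 CPM (n = 2 each).

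Among mitosis genes, CCNB1, a cyclin that activates CDK1, averaged 58.8 ± 24.4 CPM in early and 43.4 ± 23.9 CPM in later follicle organoids without inhibitor (SD, n = 2 each), and 42.8 ± 9.83 CPM in early (n = 3) and 27.1 ± 7.29 CPM in later ones with it (n = 2). The interfollicular organoid libraries had 55.3 CPM early and 36.4 CPM later. The tissues had 11.9 ± 1.94 CPM (follicles), 6.50 ± 1.96 CPM (whole skin) and 6.26 ± 2.16 CPM (interfollicular epidermis; n = 2 each), below every organoid mean in expansion medium. CDC20, which starts anaphase, had the same gap: its organoid group means in expansion medium ran from 30.3 to 56.3 CPM, and its tissue means were 5.65 ± 4.24 CPM in follicles, 7.45 ± 0.61 CPM in whole skin and 3.89 ± 5.50 CPM in interfollicular epidermis.

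TOP2A, which untangles DNA, was less far apart, with 106 ± 1.87 CPM in early and 77.4 ± 36.3 CPM in later follicle organoids without inhibitor (SD, n = 2 each), against 54.8 ± 8.15 CPM in follicles, 56.6 ± 2.08 CPM in whole skin and 33.0 ± 13.6 CPM in interfollicular epidermis. With the inhibitor it averaged 91.0 ± 37.7 CPM in early (n = 3) and 73.3 ± 8.11 CPM in later follicle organoids (n = 2), and stood at 101 CPM in the early but 18.2 CPM in the later interfollicular library. CDK1 itself had few counts: its highest value, 31.6 CPM, was in the early interfollicular organoid library, and it was at 0 in the later one. There 0 counts allow up to 13.5 CPM before TMM scaling, and 1 count stands for 6.06 CPM after it. It averaged 16.1 ± 2.27 CPM in early and 11.98 ± 5.80 CPM in later follicle organoids without inhibitor, 7.65 ± 1.79 and 7.46 ± 2.28 CPM in early and later ones with it, and 4.77 ± 1.12 CPM in follicles, 3.55 ± 5.02 CPM in interfollicular epidermis and 2.90 ± 1.32 CPM in whole skin. MKI67, the usual marker of cycling cells, had group means from 0 to 7.46 CPM and was not tested.

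**Figure D2:**
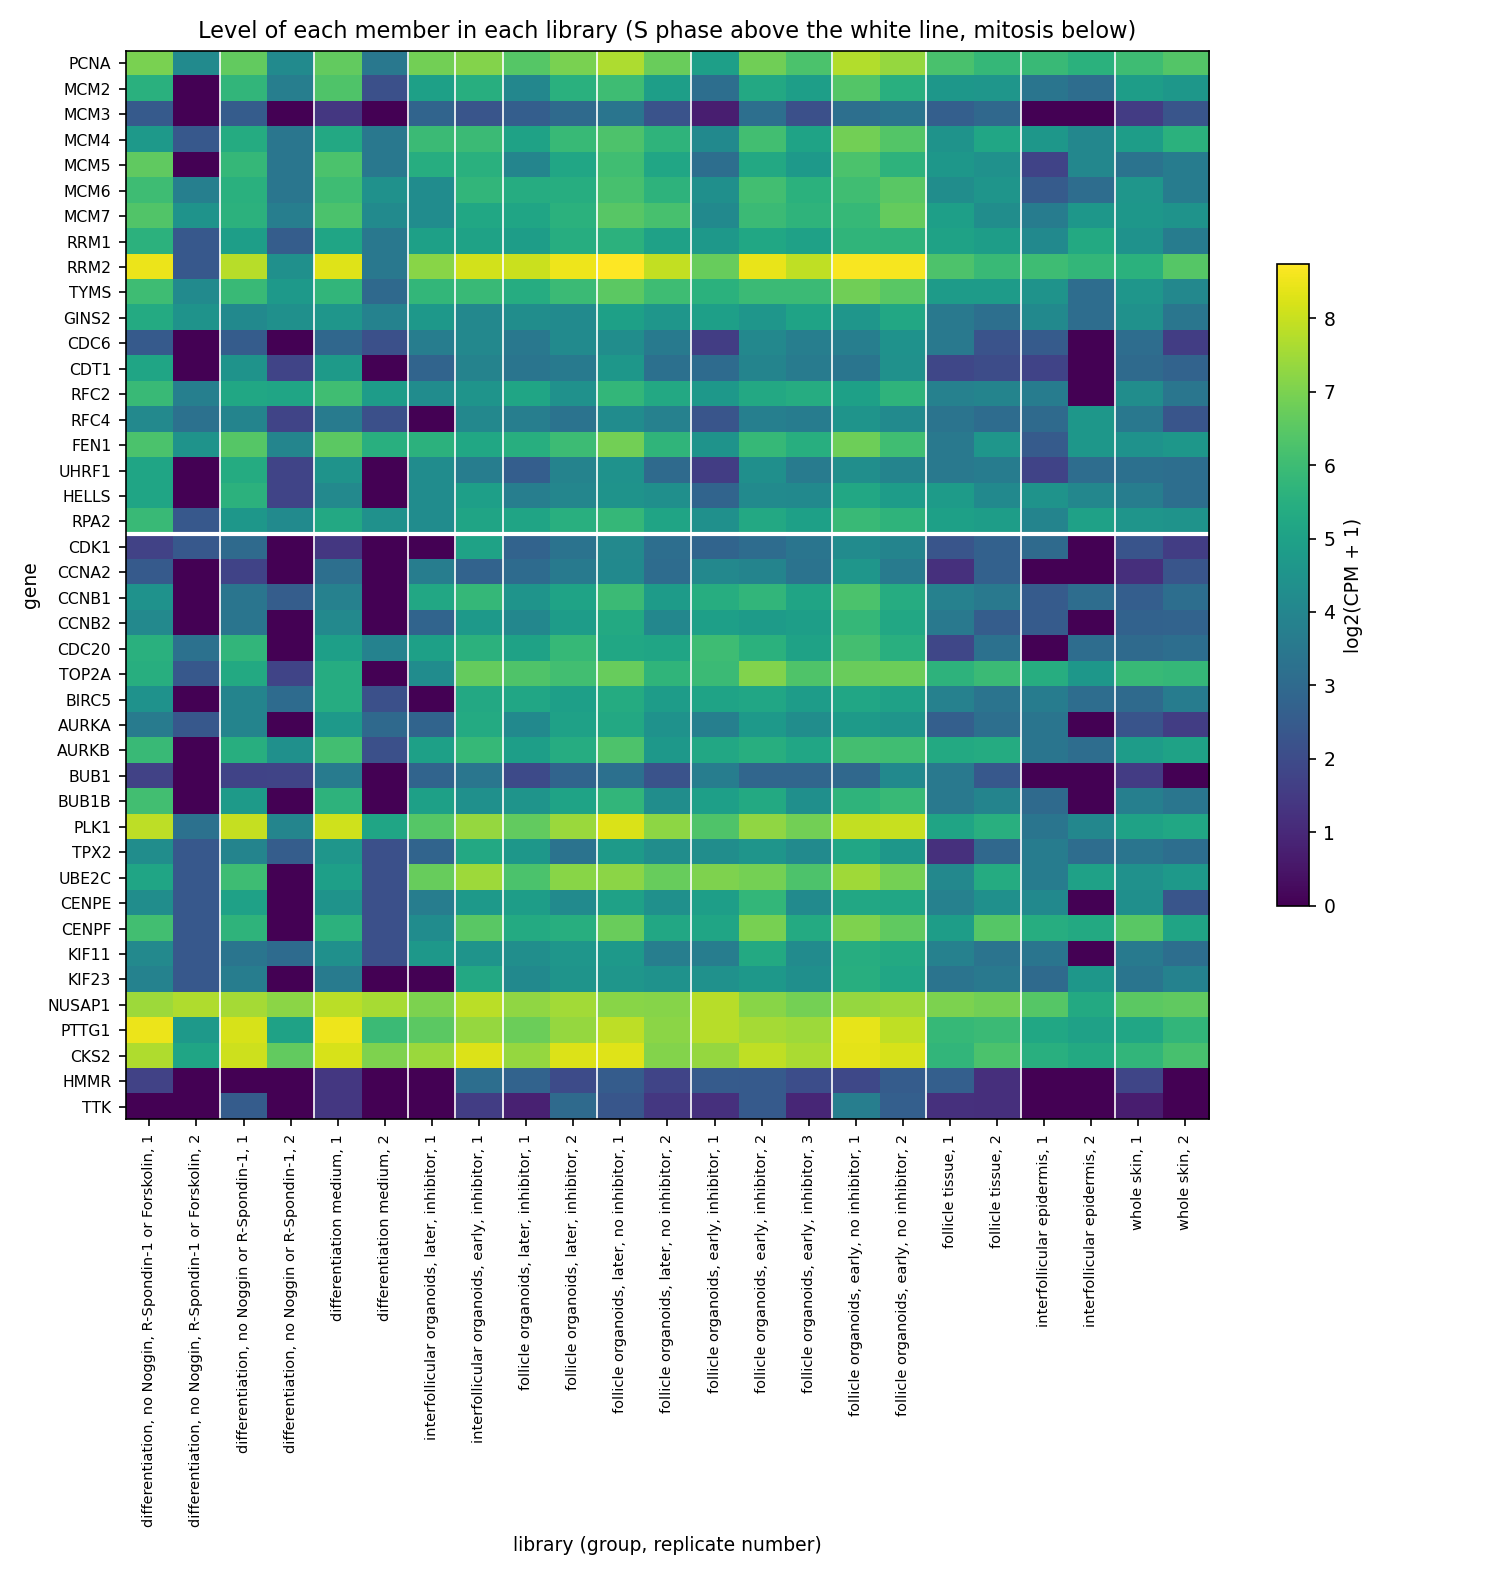
Level of every member (rows) in every library (columns, by group and replicate number) as log2(CPM + 1), with S phase genes above the white line and mitosis genes below it. The replicate 2 columns of the differentiation media are dark for most members, while NUSAP1 stands at 148 to 208 CPM there.

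Follicle organoids in expansion medium (9 libraries) were set against follicle tissue (2 libraries), the source they were grown from. Of the mitosis genes 8 of 21 tested rose and 0 fell, and of the S phase genes 4 of 18 rose and 0 fell, by edgeR's quasi-likelihood test at a Benjamini-Hochberg adjusted p under 0.05. Of all genes tested, 9.18% rose and 18.6% fell. The median log2 change was 1.57 over the mitosis genes and 1.04 over the S phase genes, against 0.016 over all genes. The mitosis genes that rose act at entry (CCNB1, CCNB2, CKS2), in spindle assembly (AURKA, TPX2), in chromosome passage (BIRC5) and at anaphase (CDC20, UBE2C).

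CDC20 lay between 31.5 and 67.9 CPM in the organoids, with a median of 44.7 CPM, against 2.65 and 8.65 CPM in follicles. Its log2 change was 2.79 ± 0.72 (SE; edgeR, adjusted p = 0.00541), the largest of the 39 members tested in this comparison. TPX2, which helps microtubules to form around chromosomes, lay between 9.07 and 35.3 CPM (median 22.4) in the organoids, against 1.32 and 6.80 CPM in follicles, and rose by 2.13 ± 0.57 (edgeR, adjusted p = 0.00695). CKS2, a small partner of CDK1, lay between 138 and 327 CPM (median 240.3) in the organoids, against 53.0 and 75.4 CPM in follicles, and rose by 1.88 ± 0.52 (edgeR, adjusted p = 0.00954). For each of these 3 genes all 9 organoid libraries exceeded both follicle libraries. Such a gap was seen for 14 of the 21 mitosis and 5 of the 18 S phase genes, and for 14.9% of all genes.

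CCNB1 rose by 1.81 ± 0.53, CCNB2 by 2.02 ± 0.63 and UBE2C, the ubiquitin-conjugating enzyme of the anaphase-promoting complex, by 2.06 ± 0.66, with edgeR adjusted p-values of 0.0131, 0.0201 and 0.023. AURKA, a centrosome kinase, and BIRC5, a member of the chromosomal passenger complex, rose by 1.75 ± 0.56 and 1.57 ± 0.51 (edgeR, adjusted p = 0.0234 and 0.026). PLK1, a kinase with roles from mitotic entry to cell division, lay between 78.8 and 300.1 CPM (median 155) in organoids, against 33.1 and 44.5 CPM in follicles. Its groups did not overlap either, but its change of 2.12 ± 0.81 did not pass (edgeR, adjusted p = 0.0563).

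Of the S phase genes, GINS2, a subunit of the GINS complex, lay between 17.1 and 36.8 CPM (median 23.2) in organoids, against 10.6 and 8.03 CPM in follicles. It rose by 1.48 ± 0.39 (edgeR, adjusted p = 0.00644), with no overlap. FEN1 lay between 21.2 and 116 CPM (median 57.4) in organoids, against 10.6 and 22.9 CPM in follicles, and rose by 1.83 ± 0.58 (edgeR, adjusted p = 0.0223), although early replicate 1 with inhibitor, at 21.2 CPM, lay below the higher follicle library. RFC2, a clamp loader subunit, lay between 20.2 and 54.3 CPM (median 37.3) in organoids, against 13.3 and 14.2 CPM in follicles, and rose by 1.40 ± 0.47 (edgeR, adjusted p = 0.0293). TYMS rose by 1.37 ± 0.46 (edgeR, adjusted p = 0.0301). PCNA changed by 0.92 ± 0.61 (edgeR, adjusted p = 0.278), MCM5 by 0.74 ± 0.70 (0.468), TOP2A by 0.64 ± 0.55 (0.417), CDK1 by 1.03 ± 0.55 (0.171) and RRM2 by 2.18 ± 0.93 (0.0854), and none of them passed. The spread behind these SEs is estimated over all groups, including the differentiation media, whose replicates lie far apart in most members. The ratio of replicate 2 over replicate 1 there was 0.039 for RRM2 and 0.692 for GINS2. The part of that split in which members passed was not tested.

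Replication and mitosis genes outside the 42 moved the same way where they were called, while the cell cycle regulators called went both ways. Of 34 other replication genes tested 6 rose and 0 fell, led by GMNN, the geminin that blocks relicensing (1.499 ± 0.40, edgeR adjusted p = 0.00707), GINS1 (1.78 ± 0.54, 0.0161) and the origin-firing kinase CDC7 (2.03 ± 0.65, 0.0236). Of 49 other mitosis genes 14 rose and 0 fell, led by CEP55, which acts at abscission (3.31 ± 0.59, edgeR adjusted p = 0.000171), INCENP, the scaffold of the chromosomal passenger complex (1.83 ± 0.46, 0.00465), and the microtubule-associated CKAP2 (1.49 ± 0.44, 0.0132). Of 20 cell cycle regulators, CDK6, a kinase that starts the cycle, rose by 1.62 ± 0.34 (edgeR, adjusted p = 0.000856) and CDK2, the kinase of S phase entry, fell by 1.15 on the log2 scale (SE 0.29, edgeR adjusted p = 0.00459).

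The cell mixture differed between these groups too. The 7 basal keratinocyte markers summed to 43550 to 72927 CPM in organoids, against 8899 to 9079 CPM in follicles, and the 4 hair shaft and matrix markers listed in all libraries to 34.0 to 50.3 CPM, against 3072 to 4237 CPM. The 7 fibroblast markers summed to 47.6 to 493 CPM in organoids, against 4207 to 7258 CPM in follicles, and the 4 immune markers listed in all libraries to 5.4 to 27.1 CPM, against 116 to 236 CPM. The 2 endothelial markers listed in all libraries summed to 2.6 to 6.6 CPM in organoids, against 22.2 to 27.8 CPM in follicles. PTPRC and KDR, which mark immune and endothelial cells, were at 0 in all 9 organoid libraries. The part of these differences in the result was not tested. The counts rest on few follicle libraries: without follicle replicate 1 the calls were 1 S phase and 0 mitosis genes, without replicate 2 they were 0 and 2, without later replicate 1 without inhibitor 2 S phase genes rose, and without early replicate 1 with inhibitor 6 and 11 rose. With DESeq2's size factors in place of TMM the median over all genes moved to -0.163, and the split over all genes was 614 higher and 2152 lower, against 905 and 1837.

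**Figure D3:**
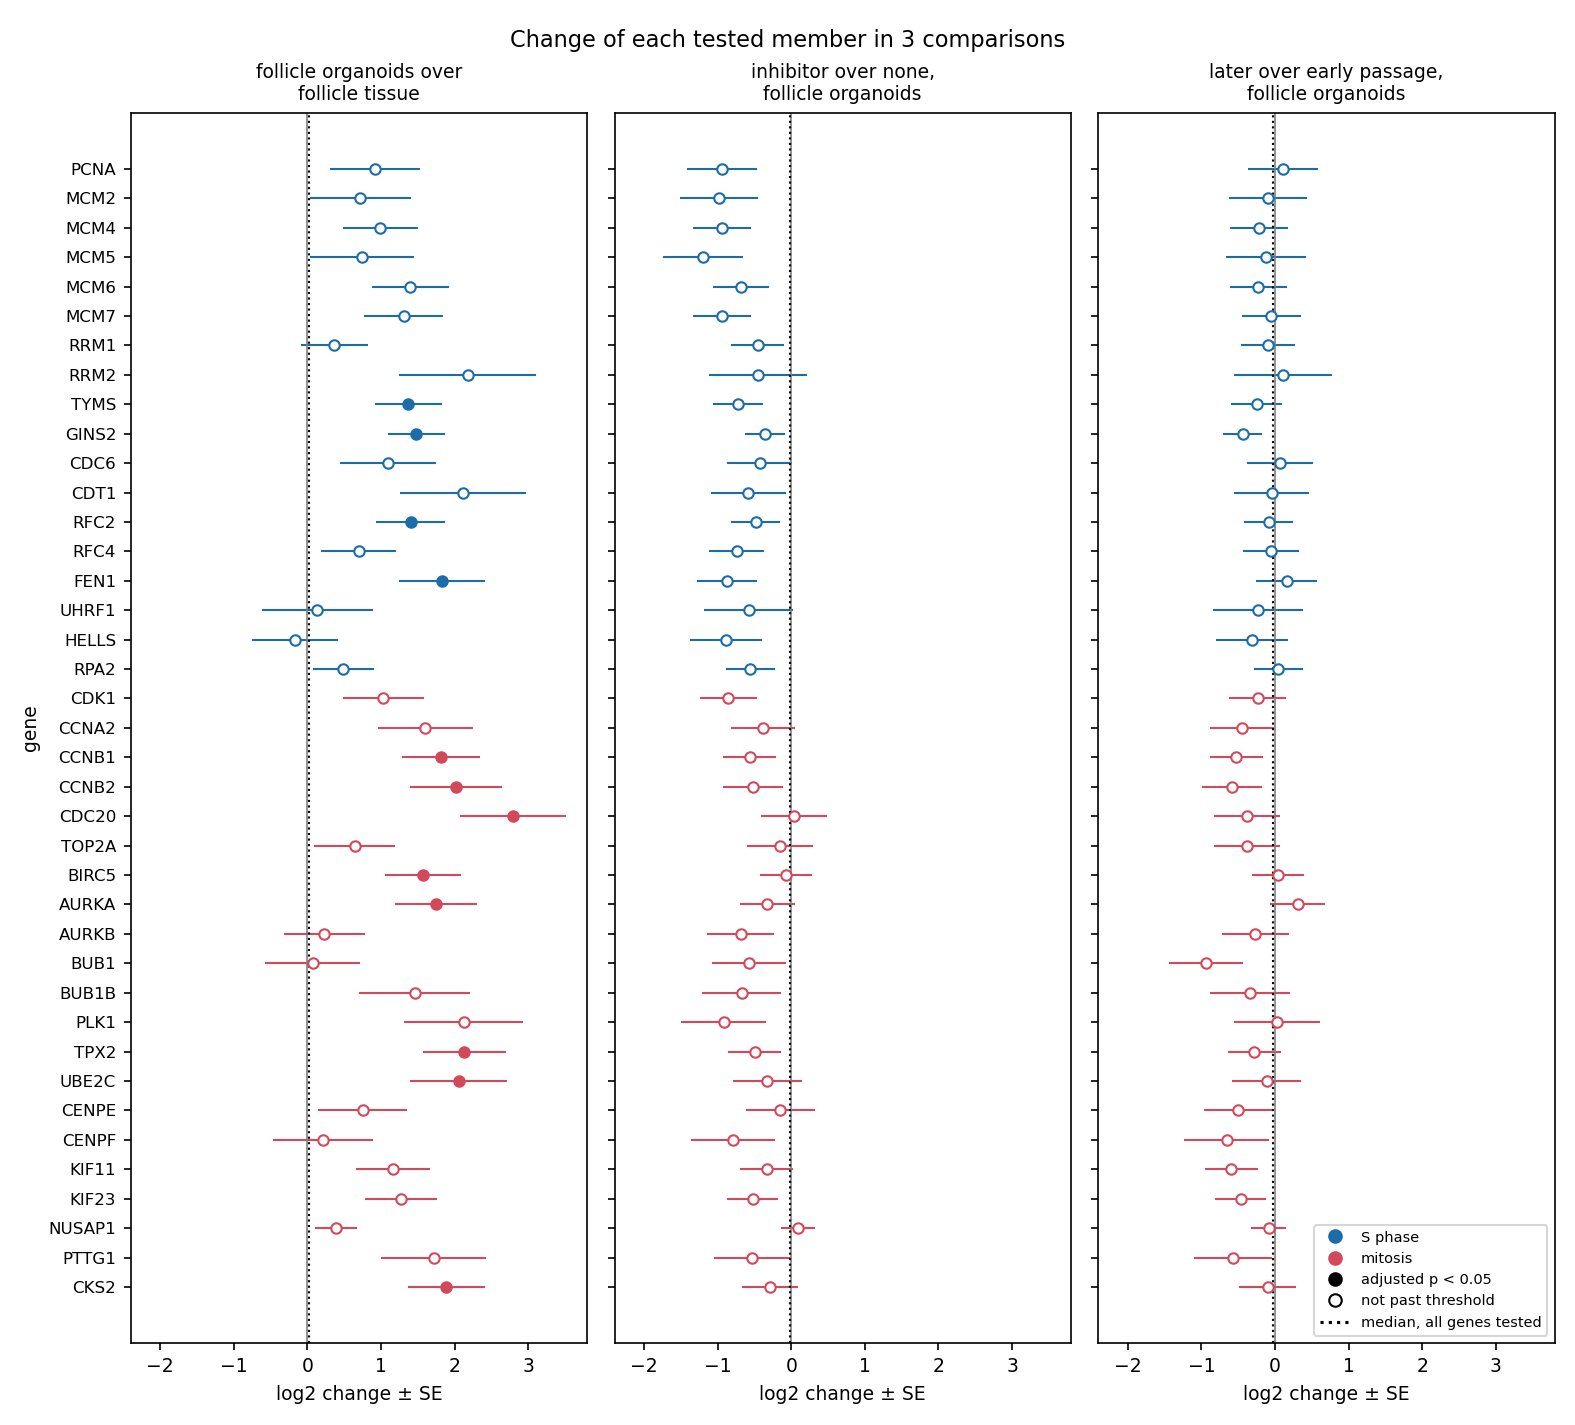
Log2 change ± SE of each tested member in 3 comparisons of follicle organoids: organoids over follicle tissue, inhibitor over none, and later over early passage. Filled points passed an adjusted p of 0.05 and the dotted line marks the median of all genes; 12 points are filled in the first panel and 0 in the others.

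Interfollicular organoids (2 libraries) were set against interfollicular epidermis (2 libraries). The median log2 change was 1.61 over the S phase and 1.78 over the mitosis genes, against -0.10 over all genes, but 2 of 21 mitosis genes and 0 of 18 S phase genes rose, and 7.11% of all genes did. CKS2 had 310.2 CPM in the early and 170 CPM in the later organoid library, against 45.0 and 38.9 CPM in epidermis, and rose by 2.42 ± 0.71 (edgeR, adjusted p = 0.0311). NUSAP1, which bundles spindle microtubules, had 225 and 127 CPM, against 85.2 and 38.9 CPM, and rose by 1.33 ± 0.41 (edgeR, adjusted p = 0.04). In both genes the organoid libraries lay above both epidermis libraries.

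No S phase gene passed; 1 of 18 had an unadjusted p under 0.05, as did 26.8% of all genes, and DESeq2 called 0. TYMS had 59.3 and 54.5 CPM in interfollicular organoids, against 21.3 and 7.78 CPM in epidermis (1.71 ± 0.76, edgeR adjusted p = 0.155). MCM6, a helicase subunit, had 53.4 and 18.2 CPM, against 4.73 and 7.78 CPM (2.48 ± 1.23, 0.2). All organoid values of these genes exceeded all epidermis values, as they did for 12 of 18 S phase, 13 of 21 mitosis and 26.6% of all genes. The counts behind them are few: 30 and 9 against 9 and 1 for TYMS, and 27 and 3 against 2 and 1 for MCM6. Interfollicular epidermis replicate 2 held 42 counts of S phase and 36 of mitosis genes in all, with 4 and 10 members at 0. Without it 0 mitosis genes were called, and without replicate 1 the count was 1; under library totals it was 0, and with DESeq2 1, CKS2.

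Among other genes of the cycle CKAP2 rose by 2.50 ± 0.73 (edgeR, adjusted p = 0.0311), E2F4, a repressor type E2F factor, rose by 3.05 ± 0.52 (0.000577), and WEE1, the kinase that restrains CDK1, fell by 2.90 on the log2 scale (SE 0.74, 0.0134), while 0 of 34 other replication genes passed. The 7 suprabasal markers summed to 3660 to 5410 CPM in interfollicular organoids, against 12960 to 17584 CPM in epidermis, the 7 basal markers to 28143 to 44109 CPM, against 6924 to 16626 CPM, and the 7 fibroblast markers to 132 to 685 CPM, against 1253 to 3552 CPM; their part in the result was not tested. With library totals the median over all genes was -0.692, and the calls split into 389 higher and 1098 lower, against 701 and 429; with DESeq2's size factors it was 561 and 532. Under library totals the numbers of S phase and mitosis genes above 0 were 13 and 14, against 17 and 17 with TMM.

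No member passed the test between follicle tissue and interfollicular epidermis: 0 of 39 were called, against 2.81% of all genes, DESeq2 called 0, and 2 mitosis genes had an unadjusted p under 0.05, against 16.3% of all genes. MCM6 had 18.6 and 22.2 CPM in follicles, against 4.73 and 7.78 CPM in epidermis, a log2 change of 1.88 ± 1.09 (edgeR, adjusted p = 0.409). MCM5 had 23.8 and 20.4 CPM, against 2.37 and 15.6 CPM (1.91 ± 1.5, 0.567), and NUSAP1 had 127 and 116 CPM, against 85.2 and 38.9 CPM (0.85 ± 0.40, 0.289). The epidermis values rest on few counts: 2 and 1 for MCM6, and 1 and 2 for MCM5. BUB1, a checkpoint kinase, had 10.6 and 4.32 CPM in follicles and was at 0 in both epidermis libraries (edgeR, adjusted p = 0.295). A count of 0 allows up to 8.93 and 34.8 CPM in these 2 epidermis libraries, before TMM scaling, so absence of BUB1 is not shown. CDK2 was higher in follicles, 87.4 and 86.5 CPM against 16.6 and 15.6 CPM, and was the one regulator called (2.41 ± 0.54, edgeR adjusted p = 0.0157). With library totals the median over all genes was -0.102 (0.218 with TMM), and the calls split into 145 higher and 143 lower, against 204 and 73.

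Interfollicular organoids were also set against follicle organoids that received the same inhibitor. Of the 39 members 0 were called, against 6.55% of all genes, DESeq2 called 0, and 1 mitosis gene, BIRC5, had an unadjusted p under 0.05, against 16% of all genes. BIRC5 had 37.5 CPM in the early and 0 in the later interfollicular library, against 27.2 to 35.1 CPM in the 5 follicle organoid libraries (-4.00 ± 1.86, edgeR adjusted p = 0.292). KIF23, a motor of the central spindle, had 37.5 and 0 CPM, against 16.8 to 24.1 CPM (-3.35 ± 2.11, 0.478), and RFC4, a clamp loader subunit, 15.8 and 0 CPM, against 3.97 to 12.6 CPM (-3.00 ± 2.32, 0.589). In all 3 genes the early interfollicular library was the highest and the later had 0 counts. A count of 0 there allows up to 13.5 CPM before TMM scaling, above every RFC4 value of these follicle organoids. The later library held 113 counts of S phase and 134 of mitosis genes in all. RFC2 differed by -0.64 ± 0.62 (0.686). E2F4 was higher in interfollicular organoids by 1.49 ± 0.33 (edgeR, adjusted p = 0.00478). Marker levels differed here too. Hair shaft and matrix markers summed to 90.9 CPM in the early and 576 CPM in the later interfollicular library, against 39.0 to 50.3 CPM in these follicle organoids. Fibroblast markers summed to 132 and 685 CPM, against 47.6 to 127 CPM. Basal markers summed to 28143 and 44109 CPM, against 43550 to 72605 CPM. The part of these differences in the result was not tested.

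The Tgf-beta inhibitor was compared with its absence in follicle organoids, 5 libraries against 4. All 18 S phase genes tested and 19 of 21 mitosis genes had lower fitted levels with it, with median log2 changes of -0.70 and -0.50, against -0.012 over all genes. None passed the test: edgeR called 0 of 39, against 2.6% of all genes, DESeq2 called 0, and 5 S phase and 1 mitosis gene had an unadjusted p under 0.05, against 14.3% of all genes. The direction is shared by genes of the same libraries and is not counted as support.

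MCM4, a helicase subunit, had 16.6, 66.5 and 32.9 CPM in early and 31.5 and 58.5 CPM in later libraries with inhibitor, against 117 and 84.1 CPM in early and 77.2 and 50.1 CPM in later libraries without it. Its change was -0.94 ± 0.39 (edgeR, adjusted p = 0.253, 0.0607 to 0.663 over the alternatives). The groups overlap in MCM4, where early replicate 2 and later replicate 2 with inhibitor lie above later replicate 2 without it. MCM7, of the same ring, had 16.6, 60.8 and 50.8 CPM in early and 34.4 and 46.4 CPM in later libraries with inhibitor, against 57.1 and 100.2 CPM in early and 88.2 and 71.7 CPM in later ones without it (-0.94 ± 0.40, edgeR adjusted p = 0.263). CDK1 had 5.96, 7.46 and 9.52 CPM in early and 5.85 and 9.07 CPM in later libraries with inhibitor, against 17.7 and 14.5 CPM in early and 16.1 and 7.87 CPM in later ones without it (-0.86 ± 0.39, edgeR adjusted p = 0.311). In CDK1 too later replicate 2 without inhibitor is the library that overlaps, and MCM7 overlaps through early replicate 2 with inhibitor and early replicate 1 without it. MCM5 (-1.20 ± 0.55, 0.314) had the lowest fitted change of the members and PLK1 (-0.92 ± 0.58, 0.511) the lowest of the mitosis genes.

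Within the early passages all 39 members were lower with inhibitor, with medians of -0.86 over S phase and -0.58 over mitosis genes. Of these 0 were called (1.21% of all genes were), and 11 S phase and 9 mitosis genes did not overlap, against 16.9% of all genes in this direction. MCM4 changed by -1.37 ± 0.52 (edgeR, adjusted p = 0.241), PCNA by -1.33 ± 0.64 (0.373), CDK1 by -0.99 ± 0.51 (0.416) and KIF23 by -0.86 ± 0.46 (0.44). Within the later passages all 18 S phase and 17 of 21 mitosis genes were lower, with medians of -0.59 and -0.37, and 0 were called (0.325% of all genes were). This direction rests on later replicate 1 without inhibitor: without it the S phase median was -0.104, with 10 of 18 genes lower, and the mitosis median was 0.199, with 5 of 21 lower. MCM7 changed by -0.99 ± 0.59, RFC2 by -0.73 ± 0.50, CCNB1 by -0.70 ± 0.54 and CDK1 by -0.72 ± 0.59 (edgeR, adjusted p = 1 each). The difference between the passages, tested as an interaction, was called for 0 members and 0 of 9854 genes by edgeR, with 265 genes (2.69%) and 0 members at an unadjusted p under 0.05; DESeq2 called 1 gene and 0 members. KIF11, a spindle motor, came first among members at 0.96 ± 0.72, with MCM4 at 0.85 ± 0.78, RPA2 at 0.69 ± 0.66 and KIF23 at 0.67 ± 0.69 (edgeR, adjusted p = 1 each).

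Without early replicate 1 with inhibitor, the library with a low S phase sum, the medians were -0.55 and -0.48, and all 18 S phase and all 21 mitosis genes were lower. The mitosis median moved to -0.14 without later replicate 1 without inhibitor, with 15 of 21 genes lower. The suprabasal markers summed to 25980 CPM in that early library and 3399 to 5974 CPM in the other 4 with inhibitor, against 2983 to 14151 CPM in the 4 without it, and their part was not tested. The 7 markers did not move as one: with inhibitor 3 were higher and 4 lower, with 1 called in each direction. Of other replication genes 29 of 34, and of other mitosis genes 45 of 49, were lower with inhibitor, with 0 called. Under library totals the split over all genes was 134 higher and 116 lower, against 180 and 76, and in the early passages 48 and 67, against 74 and 45.

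Later passages of follicle organoids were set against early ones (4 against 5 libraries). Of 39 members 0 were called, 0 had an unadjusted p under 0.05, against 7.17% of all genes, and DESeq2 called 0; edgeR called 0.355% of all genes. GINS2 had 18.3 and 17.1 CPM in later libraries with inhibitor and 30.2 and 23.2 CPM in later ones without it, against 29.1, 22.9 and 32.7 CPM in early libraries with inhibitor and 23.1 and 36.8 CPM in early ones without it. It changed by -0.44 ± 0.27 (edgeR, adjusted p = 0.804), and the groups overlap. BUB1 had 2.93 and 6.05 CPM in later libraries with inhibitor and 8.33 and 3.73 CPM in later ones without, against 11.9, 6.31 and 6.35 CPM and 6.79 and 16.6 CPM in early ones (-0.94 ± 0.50, edgeR adjusted p = 0.754). KIF11 changed by -0.59 ± 0.36 (0.803) and TYMS by -0.25 ± 0.34 (0.96). The median was -0.093 over S phase and -0.378 over mitosis genes, against -0.028 over all genes, and the S phase median lay between -0.303 and 0.07 as single libraries were left out, above 0 without early replicate 2 or later replicate 1 with inhibitor, or later replicate 2 without it. CCND2, a D-type cyclin of G1, was the one regulator called, with 1256 and 1273 CPM in later libraries with inhibitor and 683 and 1046 CPM in later ones without it, against 403, 406 and 397 CPM and 386 and 575 CPM in early ones (1.25 ± 0.27, edgeR adjusted p = 0.0445).

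The 3 differentiation media (6 libraries) were set against later expansion medium without inhibitor (2 libraries), which the inhibitor and passage comparisons use too. Of the mitosis genes 7 of 21 fell, of the S phase genes 1 of 18 fell, and 0 rose; 10.3% of all genes fell and 4.31% rose. The genes that fell are cyclins and CDK1 (CCNB1, CCNB2, CCNA2), UBE2C, TOP2A, the motor KIF23 and, in S phase, MCM4. The differentiation libraries list other entries than the expansion libraries, so that medium and entry list cannot be told apart here.

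CCNB1 had 13.2, 9.57 and 20.7 CPM in replicate 1 and 0, 4.92 and 0 CPM in replicate 2 (complete medium first, then the one lacking Noggin and R-Spondin-1, then the one lacking Forskolin too), against 60.3 and 26.5 CPM in expansion medium. It fell by 2.24 on the log2 scale (SE 0.51, edgeR adjusted p = 0.00557), with all 6 libraries below both others, as in 5 of 21 mitosis, 2 of 18 S phase and 17.7% of all genes. UBE2C had 29.6, 64.6 and 34.5 CPM in replicate 1 and 3.42, 0 and 4.24 CPM in replicate 2, against 148 and 104 CPM, and fell by 2.39 (SE 0.58, edgeR adjusted p = 0.00934). CDK1 had 1.64, 7.18 and 2.30 CPM in replicate 1 and 0, 0 and 4.24 CPM in replicate 2, against 16.1 and 7.87 CPM, and fell by 2.35 (SE 0.64, 0.0177). For these genes too the groups did not overlap.

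MCM4 had 37.8, 40.7 and 25.3 CPM in replicate 1 and 10.3, 9.84 and 4.24 CPM in replicate 2 of the differentiation media in the same order, against 77.2 and 50.1 CPM in expansion medium, and fell by 1.499 (SE 0.50, edgeR adjusted p = 0.046) with no overlap. TOP2A had 41.1, 38.3 and 43.7 CPM in replicate 1 and 0, 2.46 and 4.24 CPM in replicate 2, against 103 and 51.8 CPM, and fell by 1.70 (SE 0.56, 0.0458). KIF23 (-1.51 ± 0.50, edgeR adjusted p = 0.0471), CCNB2 (-1.76 ± 0.59, 0.0479) and CCNA2, the cyclin of S phase and early mitosis (-2.15 ± 0.72, 0.0495), passed narrowly. PCNA (-1.26 ± 0.56, 0.132), RRM2 (-1.10 ± 0.77, 0.35), PLK1 (-0.70 ± 0.68, 0.514), MCM5 (-0.20 ± 0.65, 0.865) and NUSAP1 (0.40 ± 0.29, 0.37) did not. NUSAP1 had 228, 187 and 172 CPM in replicate 1 and 191, 148 and 208 CPM in replicate 2, against 145 and 140.0 CPM in expansion medium.

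Most members separate these 6 libraries by replicate number. All 3 replicate 1 libraries lay above all 3 replicate 2 libraries for 18 of 19 S phase and 18 of 23 mitosis genes, and for 16% of all genes. The median ratio of replicate 2 over replicate 1 was 0.214 over S phase and 0.114 over mitosis genes. RRM2 had 354, 220.1 and 312 CPM in replicate 1 and 4.24, 19.7 and 10.3 CPM in replicate 2 of the medium lacking all 3 factors, the one lacking Noggin and R-Spondin-1 and the complete one, against 424.7 and 242.3 CPM in expansion medium. PLK1 averaged 251 CPM in replicate 1 and 19.1 CPM in replicate 2, against 225 CPM in expansion medium, and PTTG1 (securin) averaged 339 and 39.7 CPM, against 188 CPM. GINS2 was the S phase gene that overlapped between the replicate numbers. In replicate 2 all 3 libraries lay below both expansion libraries for 19 of 19 S phase and 22 of 23 mitosis genes, against 31.9% of all genes, and NUSAP1 was the exception. In replicate 1 they did so for 2 and 6 genes, against 27.5% of all genes.

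**Figure D4:**
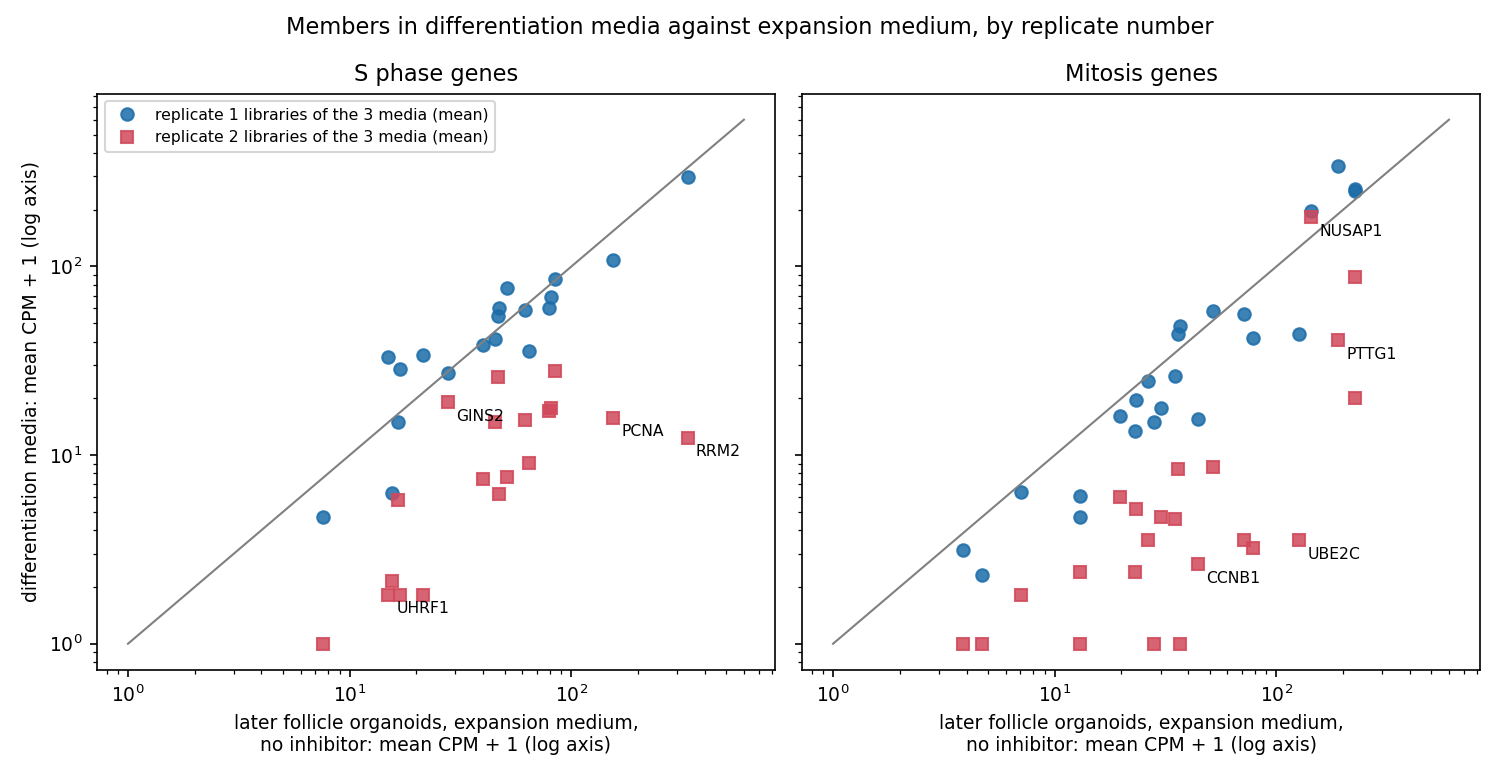
Mean level of each member in the 3 replicate 1 or the 3 replicate 2 libraries of the differentiation media (vertical axis) against later expansion medium without inhibitor (horizontal axis), as CPM + 1 on log axes, with a diagonal where the levels are equal. Most replicate 2 points lie far below the diagonal; GINS2 lies closer to it, at 18.2 CPM in replicate 2 against 26.7 CPM in expansion medium, and NUSAP1 above it, at 182 against 143 CPM.

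The replicate numbers were also fitted apart, after these values had been seen, so the fits restate the split and are a description only. Replicate 1 alone put 0 of 18 S phase and 2 of 22 mitosis genes past the threshold as lower (6.6% of all genes), and replicate 2 alone 15 of 18 and 18 of 22 (16% of all genes). The fitted log2 change with replicate 1 was -1.64 for CCNB1 and -1.63 for UBE2C, and with replicate 2 it was -5.15 for RRM2 and -3.82 for PLK1. The suprabasal markers summed to 2519 to 2589 CPM in replicate 1 and 10952 to 14209 CPM in replicate 2, against 3713 to 3887 CPM in expansion medium, most of it involucrin (IVL), the cornified envelope precursor, at 1825 to 1867 CPM and 9930 to 12586 CPM. In the fit of both replicate numbers against expansion medium, 4 of these 7 markers were higher and 3 lower, with 0 called as higher and 1 as lower. Basal markers summed to 63530 to 76975 CPM in replicate 1 and 27946 to 62750 CPM in replicate 2. Replicate 2 totals were 237864 to 409603 counts, against 435222 to 694104 in replicate 1, and 35 to 88 of them fell on S phase genes. Mitochondrial transcripts made up 14.93 to 17.06% of counts in replicate 1 and 7.98 to 12.58% in replicate 2. The part of marker levels, depth and the mitochondrial share in the result was not tested.

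The call of the mean over all 6 libraries rests on single libraries and on the tool: DESeq2 called 0 S phase and 3 mitosis genes, as many as edgeR with DESeq2's size factors. Without later replicate 1 in expansion medium 0 S phase and 0 mitosis genes fell, and without later replicate 2 there 0 and 4 fell. Without replicate 1 of the complete medium, of the one lacking Noggin and R-Spondin-1 and of the one lacking Forskolin too, the counts were 4 and 9, 3 and 11, and 6 and 8; without replicate 2 of any of the 3 they were 0 and 3. With the replicate number as a block the counts were 0 and 5, and MCM4 (edgeR, adjusted p = 0.064, with 0.00101 to 0.329 over the alternatives), KIF23 (0.0703, with 0.00722 to 0.22) and CCNA2 (0.0631, with 0.00723 to 0.398) no longer passed. The median over all genes was -0.043 with DESeq2's size factors and -0.154 with TMM, and with the size factors 539 genes were higher and 826 lower, against 418 and 1000.

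Of 34 other replication genes 8 fell and 0 rose, led by POLE3, a small subunit of polymerase epsilon (-2.30 ± 0.31, edgeR adjusted p = 7.67e-05), POLE2 (-4.08 ± 0.77, 0.00163) and GMNN (-1.57 ± 0.37, 0.00687). Of 49 other mitosis genes 9 fell and 0 rose, led by CEP55 (-3.23 ± 0.58, edgeR adjusted p = 0.000899), FAM83D, which binds the spindle (-2.75 ± 0.51, 0.0012), and the centromere protein CENPN (-3.44 ± 0.67, 0.00169). Of 20 regulators WEE1 (-1.79 ± 0.43, edgeR adjusted p = 0.00878), the retinoblastoma gene RB1 (-2.11 ± 0.57, 0.0171) and E2F4 (-1.12 ± 0.32, 0.0228) fell and 0 rose.

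Leaving factors out of the differentiation medium gave no call. Without Noggin and R-Spondin-1 against the complete medium edgeR called 0 members and 0 of 9703 genes, with 256 genes (2.64%) and 0 members at an unadjusted p under 0.05 and 0 called by DESeq2. Without Forskolin in addition it again called 0 of 9703, with 329 genes (3.39%) and 0 members at an unadjusted p under 0.05 and 0 called by DESeq2. HELLS had 47.8 and 2.46 CPM without Noggin and R-Spondin-1, against 16.4 and 0 CPM in the complete medium (1.28 ± 1.00, edgeR adjusted p = 1), and BIRC5 had 14.4 and 7.38 CPM, against 41.1 and 3.42 CPM (-1.24 ± 0.77, 1). GINS2 had 39.1 and 21.2 CPM without Forskolin in addition, against 16.8 and 19.7 CPM with it (0.79 ± 0.53, 1), the 1 S phase gene whose libraries lay apart in this direction, as those of 9.47% of all genes did, and BUB1B, a checkpoint protein, 66.7 and 0 CPM, against 26.3 and 0 CPM (1.52 ± 1.11, 1). The other genes with the smallest p were MCM7 (-0.73 ± 0.72) and AURKA (-1.28 ± 0.89) for Noggin and R-Spondin-1, and RPA2 (0.81 ± 0.66) and CKS2 (-0.57 ± 0.61) for Forskolin, with edgeR adjusted p-values of 1. With the replicate number as a block and these 6 libraries alone, 0 members were called in both comparisons.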

How the data were processed

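CEL-seq2 RNA libraries of dog skin, follicles, epidermis and epidermal organoids were sequenced and counted by the authors, and the deposited values are estimated counts per gene, with fractions. Reads were aligned with BWA 0.6.2-r126 to CanFam3.1, per the submitters' processing notes; for the counter, the annotation and molecular identifiers, the steps are not stated in the labels. There are 20448 entries for each of the 17 libraries of tissue and expansion medium, but 18113 for each of the 6 in differentiation medium. The latter thus have another entry list. Entries without a gene name (0.461 to 2.158% of counts) were left out, and counts were rounded to whole numbers.

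All 23 libraries were fitted together with a mean for each group in edgeR 4.0.16 (R 4.3.3; quasi-likelihood test, TMM scaling, filterByExpr, Benjamini-Hochberg over all 9854 genes tested, or 9703 in comparisons with differentiation libraries, where 151 entries not listed were set to 0 and not tested). The SE is the log2 change over the square root of F. Each gene has a single estimate of its spread over all groups. SEs, p-values and calls of a comparison thus also depend on libraries outside it, among them the differentiation replicates. DESeq2 1.42.0 was an alternative. Levels are TMM-scaled CPM. Members and lists were chosen with earlier results of these data known. Named in each comparison were the called members with the smallest p, up to 6 a direction and list, or the first 2 of a list with none called; PLK1, NUSAP1 and other repeats were added after their values were seen. All 42 symbols are in RefSeq (UU_Cfam_GSD_1.0). Scripts were tested on simulated data. In the differentiation media, same-numbered libraries deviated together from their group means (correlations of 0.339 to 0.441 over the 3 pairs). The other 33 pairs gave -0.14 to 0.147. The main fit is unpaired: the replicate number enters only in the alternative fits with a block.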

Additional observations from a re-analysis of the deposited data

How the results depend on the processing

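In follicle organoids over follicle tissue the S phase count (4 called) was 2 under library totals, 2 with DESeq2 and 10 with no low-count filter, and 0 to 6 as single libraries were left out; the mitosis count (8) was 14 with no filter and 0 to 11 in leave-one-out fits. In interfollicular organoids over epidermis the S phase count (0) was 2 with no filter, and the mitosis count (2) was 1 with DESeq2's size factors, 0 under library totals, 1 with DESeq2, 6 with no filter, 0 with the replicate block and 0 to 1 in leave-one-out fits. With no filter the inhibitor gave 1 S phase gene over both passages and 2 in the early ones. In differentiation over expansion medium the S phase count (1) was 0 with size factors, 0 with DESeq2, 5 with no filter, 0 with the replicate block and 0 to 6 in leave-one-out fits, and the mitosis count (7) was 3 with size factors, 3 with DESeq2 and 0 to 11 in leave-one-out fits. By replicate 1 of the differentiation media alone the counts were 0 and 2, and by replicate 2 alone 15 and 18; these fits, and the block over the 6 differentiation libraries alone, were chosen after seeing the data. With the replicate block the other counts of members called stayed within 1.5 times. The cause was not tested in any of these.

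Some changes that were not called turned sign as single libraries were left out: CCNB1 with inhibitor in later passages (-1.16 to 0.0055); without Noggin and R-Spondin-1, HELLS (-2.04 to 7.94), MCM7 (-2.03 to 0.82), BIRC5 (-1.90 to 1.65) and AURKA (-7.44 to 0.091); and without Forskolin, RPA2 (-2.26 to 1.53), BUB1B (-7.03 to 8.54) and CKS2 (-2.45 to 0.33). Single gene results and the group sums of both lists were compared with the alternatives. Of these 652 stayed the same, 88 no longer passed, 2 newly passed and 9 turned sign. Same means an unchanged direction and side of the threshold for a gene, and a shift within the SD for a sum. The other 9 were sums, shifted by no less than the SD or from a group without one. Of the counts 233 stayed within 1.5 times and 43 did not. Depth limits interfollicular epidermis replicate 2 (86301 counts) and the later interfollicular organoid library (222051 counts) most, followed by replicate 2 of the differentiation medium lacking all 3 factors (237864 counts).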

Other observations

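Values of 2 regulators of the cycle are given here by library; they were singled out after their values were seen. CDK6 had 86.7, 86.6 and 80.7 CPM in early and 79.8 and 67.6 CPM in later follicle organoid libraries with inhibitor, against 20.4 and 42.5 CPM in early and 55.4 and 53.9 CPM in later ones without it. CDK6 was not called (0.90 ± 0.25, edgeR adjusted p = 0.0546), and 0 of 20 regulators were. E2F4 had 339.4 CPM in the later and 105 CPM in the early interfollicular organoid library, against 18.9 and 31.1 CPM in interfollicular epidermis, and no other library exceeded 113 CPM.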
